A study of Mus musculus with 11 samples.

Results

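The mRNAs of 9 cyclins that drive the cell division cycle (Ccnd1, Ccnd2, Ccnd3, Ccne1, Ccne2, Ccna2, Ccnb1, Ccnb2 and Ccnf) were followed in mouse embryonic stem cells (ESCs) that carry or lack the Tet dioxygenases, and after transcription was blocked. The 9 genes were chosen by their symbols, with earlier results of these data known. All 9 were found among the 23284 genes listed for each library. RNA sequencing of 11 libraries covered 5 groups. Samples came from WT ESCs and ESCs of a previously generated Tet1/2/3 triple knockout line (TKO). Each line was sampled as a 0 h control, titled non-treated, and after 4 h of α-amanitin at 10 µg/ml, which blocks RNA polymerase II. The paper's methods describe controls as given water as vehicle, and those for RNA sequencing as untreated. These groups are called WT 0 h, WT 4 h, TKO 0 h and TKO 4 h, each with 2 libraries of total RNA depleted of ribosomal RNA. No vehicle group at 4 h is among the libraries. In all changes from 0 h to 4 h, α-amanitin and 4 h of culture therefore cannot be told apart. A further 3 libraries came from untreated WT ESCs after selection of polyadenylated RNA (WT polyA). All cells were grown on gelatin in serum with LIF, and whether the TKO line is a clone is not given in the sources used here. The α-amanitin experiment is described as done in biological duplicate. How the 3 polyA libraries relate to each other is not given in the sources used here, so p-values that use them measure the spread between those libraries, which may be technical.

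Cyclins are the regulatory subunits of the cyclin-dependent kinases (CDKs), and their levels rise and fall as cells pass through the cycle. D-type cyclins pair with Cdk4 and Cdk6 in G1 phase, E-type cyclins with Cdk2 at entry into S phase, cyclin A2 with Cdk2 and Cdk1 during S and G2 phases, and B-type cyclins with Cdk1 in mitosis. Cyclin F binds no CDK for its known role and serves as the substrate receptor of an SCF ubiquitin ligase. Mouse ESCs are known for a short G1 phase and for high cyclin E, and the Tet proteins oxidise 5-methylcytosine in DNA and in RNA.

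Levels are given as scaled TPM, that is, the deposited TPM values (length-corrected shares of a library's transcripts) divided by a size factor for each library, so they are corrected for gene length and can be set side by side between genes. Differences are on the log2(scaled TPM + 1) scale with their standard error (SE) from limma, and a gene is said to rise or fall where its Benjamini-Hochberg adjusted p over all 12467 tested genes was under 0.05. All 9 cyclins passed the filter on low values, a mean scaled TPM above 1. Depth recovered from the steps of the TPM values was 25223967 to 29478041 reads per ribodepleted library and 71876996 to 81250250 reads per polyA library, up to a divisor shared by the libraries of a gene. Behind each cyclin value in the ribodepleted libraries stood from 139 reads (Ccnd2, TKO 0 h) to 13247 reads (Ccnb1, WT 0 h). Tet1 averaged 133.5 scaled TPM in WT 0 h and 30.1 in TKO 0 h, Tet2 51.8 and 7.45, and Tet3 1.45 in both groups. Which exons the knockout removed is not given in the sources used here, so reads outside them do not check the genotype. The summed level of 6 ESC markers was 2173 to 2221 in WT 0 h and 1429 in both TKO 0 h libraries, and none was under 1 scaled TPM. Most of this drop lay in Zfp42 (means 490 and 115) and Pou5f1 (1154 and 914). Sox2, Klf4 and Esrrb were also lower, while Nanog went the other way without a pass (38.1 and 42.8, adjusted p = 0.128 by limma). Summed neural markers stood at 21.3 to 21.9 in WT 0 h and 33.1 to 35.1 in TKO 0 h, mostly Nes (17.4 and 30.3), with Neurog2 under 1 throughout. The corresponding sums for WT 0 h and TKO 0 h were 8.19 to 8.24 and 12.0 to 12.3 for 6 fibroblast or feeder markers, 1.06 to 1.20 and 4.14 to 4.28 for 3 trophectoderm markers, 3.46 to 3.51 and 1.59 to 2.23 for 5 endoderm markers, and 4.21 to 4.57 and 4.33 to 5.39 for 3 mesoderm markers. Among them, Pdgfra, Dcn, Elf5, Gata6, Sox17, Foxa2 and Afp were under 1 in every ribodepleted library. Most of the trophectoderm difference lay in Hand1 (means 0.27 in WT 0 h and 2.96 in TKO 0 h). The fibroblast difference lay mostly in Col1a2 (1.53 and 4.71), while Col3a1 (2.01 and 2.02) and Thy1 (1.34 and 1.28) hardly differed. The part of these markers in the cyclin differences was not tested. On the second principal component over all tested genes, which held 14.53% of the variance and parted 4 h from 0 h, TKO 4 h replicate 1 lay at -2.37 and replicate 2 at -15.0, whereas the WT 4 h libraries lay at -15.1 and -12.1. Results on TKO 4 h are therefore given with and without replicate 1 where this changes them.

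In WT 0 h, Ccnb1 had the highest mRNA level of the 9, followed by Ccne1, Ccna2, Ccnb2, Ccnf, Ccnd3, Ccnd1, Ccne2 and Ccnd2. No neighbours in this order overlapped between their 2 libraries. The scaled TPM ran from 395 and 399 for Ccnb1 down to 4.83 and 4.62 for Ccnd2. Summed over the 9 genes, the level was 1593 and 1612 scaled TPM in the WT 0 h libraries and 1204 and 1194 in the TKO 0 h libraries. The order differed between genotypes in 2 places. Ccne1 stood above Ccna2 in both WT 0 h libraries and below it in both TKO 0 h libraries, and Ccnb2 stood above Ccnf in WT 0 h and below it in TKO 0 h.

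**Figure D1:**
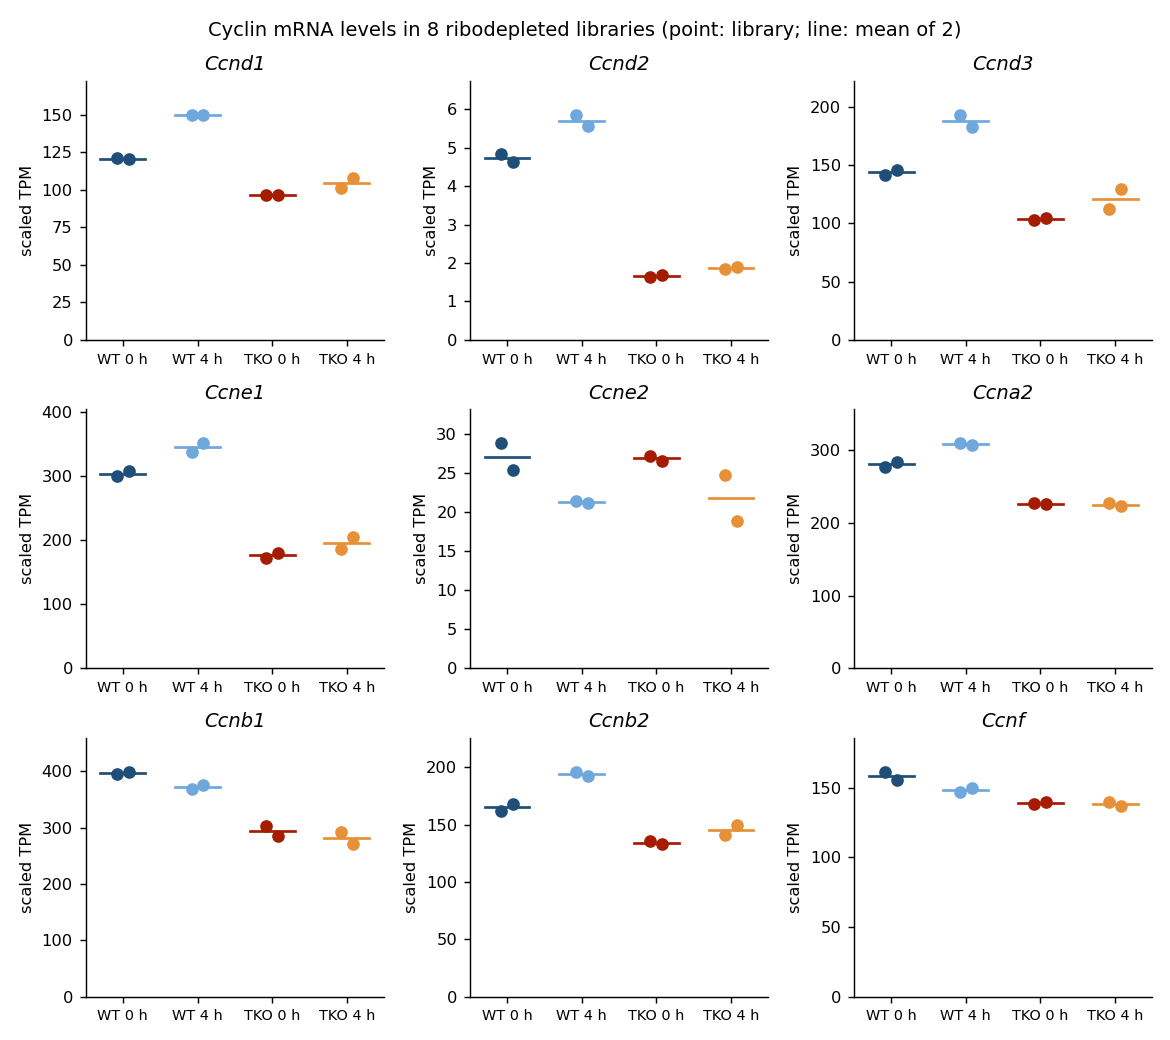
Scaled TPM (y axis, from 0) of each cyclin in the 8 ribodepleted libraries, with the 4 groups on the x axis, a point per library and a line at the mean of 2. Ccne1 sits at 299.7 and 309 in WT 0 h and at 173 and 179.8 in TKO 0 h, while Ccne2 overlaps between the genotypes at 0 h.

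The first comparison asked whether cyclin mRNA levels differ between ESCs with and without Tet proteins before any block of transcription. Here and at 4 h, the genotype p-values rest on the spread between duplicate libraries, pooled for each gene over all 4 ribodepleted groups. The fit also moderates that spread towards the trend over all tested genes. Other differences between the WT and TKO lines cannot be told apart from the knockout. At 0 h, 8 of the 9 cyclins were lower in TKO than in WT and none was higher. Across all tested genes 28.2% were lower by the same test, and 3471 genes rose while 3518 fell (4168 and 2191 with deposited TPM not divided by size factors, where 7 cyclins fell and none rose). The median difference of the 9 cyclins was -0.32, against -0.02 over all tested genes. Ccnd2 and Ccne1 also passed a limit of 1.5-fold, which 5.43% of tested genes passed in the lower direction. In bulk RNA, fewer cells in the phase that makes a transcript and less of that transcript per cell cannot be told apart.

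Among the D-type cyclins, which receive mitogen signals in G1, Ccnd2 differed most. Ccnd2 (chr6:127075797-127101066, minus strand, build NCBIM37, 5 exons) stood at 4.83 and 4.62 scaled TPM in WT 0 h and at 1.64 and 1.68 in TKO 0 h. The groups lay far apart at a low level, and the mean was 2.85-fold lower in TKO. The fitted difference was -1.11 (SE 0.082, adjusted p = 1.16e-05), which understates the fold of a gene this low. Ccnd3 (chr17:47642000-47736632, plus strand, 7 exons) stood at 142 and 146 scaled TPM in WT 0 h and at 103 and 105 in TKO 0 h, a fall by 0.47 on the log2 scale (SE 0.066, adjusted p = 0.000428). Ccnd1 (chr7:152115836-152125774, minus strand, 5 exons) was the D-type cyclin with the smallest difference, at 121 and 120.2 scaled TPM in WT 0 h and 96.4 and 96.3 in TKO 0 h (log2 difference -0.32, SE 0.044, adjusted p = 0.00033). Libraries of the 2 genotypes did not overlap for any D-type cyclin. Such separation of 2 from 2 libraries also occurred without a pass. Between WT 4 h and WT 0 h all 9 cyclins were without overlap, Ccnb1 among them (adjusted p = 0.183). The share of all tested genes without overlap was not computed, here or for the statements on overlap below. The summed D-type level was 268 and 271 scaled TPM in WT 0 h and 201 and 203 in TKO 0 h, and Ccnd3 made up 51.2% to 53.9% of it in these 4 libraries. Coordinates here and below are those of the annotated gene on NCBIM37, the assembly also called mm9, which the submitters aligned to. Each of the 3 genes overlaps a gene on the other strand (Oraov1 for Ccnd1, 9330179D12Rik for Ccnd2, Bysl for Ccnd3), Ccnd3 has a named pseudogene, and the strand setting of the counting is not stated, so reads shared with these neighbours are possible.

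The E-type cyclins, which activate Cdk2 for S phase entry, parted from each other. Ccne1 (chr7:38883003-38892553, minus strand, 12 exons) stood at 299.7 and 309 scaled TPM in WT 0 h and at 173 and 179.8 in TKO 0 h. This was a fall by 0.78 on the log2 scale (SE 0.055, adjusted p = 8.66e-06), and the mean was 1.72-fold lower in TKO. Ccne2 (chr4:11118498-11131926, plus strand, 12 exons, overlapping Ints8 on the other strand) stood at 28.8 and 25.4 scaled TPM in WT 0 h and at 27.2 and 26.6 in TKO 0 h. The TKO libraries lay between the WT libraries, and the difference was -0.01 with a 95% interval from -0.26 to 0.24 (adjusted p = 0.949). With deposited TPM its sign turned, at 0.08, where the median of all tested genes was 0.07. Ccne2 therefore supplied 8.78% and 7.61% of the summed E-type level in WT 0 h and 13.6% and 12.9% in TKO 0 h.

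The cyclins of S phase, G2 phase and mitosis were lower in TKO by 0.19 to 0.43 on the log2 scale. Ccna2 (chr3:36463788-36471072, minus strand, 8 exons, overlapping Exosc9 on the other strand) stood at 278 and 283 scaled TPM in WT 0 h and 227 and 226 in TKO 0 h, a fall by 0.31 on the log2 scale (SE 0.040, adjusted p = 0.000268). Ccnb1 (chr13:101548605-101556525, minus strand, 9 exons), the main mitotic cyclin, stood at 395 and 399 scaled TPM in WT 0 h and 302 and 286 in TKO 0 h, a fall by 0.43 (SE 0.052, adjusted p = 0.000171). Both genes had every TKO library below every WT library. Ccnb2 (chr9:70255496-70269361, minus strand, 9 exons, with a named pseudogene), a cyclin found mainly at the Golgi, stood at 162 and 169 scaled TPM in WT 0 h and 136 and 133 in TKO 0 h, a fall by 0.30 (SE 0.047, adjusted p = 0.000759). Ccnf (chr17:24359494-24388292, minus strand, 17 exons, with a miRNA gene inside it on the same strand) stood at 161 and 156 scaled TPM in WT 0 h and 138 and 139.8 in TKO 0 h. Its fall by 0.19 (SE 0.042, adjusted p = 0.00494) was the smallest of the 8, and it no longer passed with deposited TPM (-0.09, adjusted p = 0.206) or quantile normalisation (-0.05, adjusted p = 0.424).

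Promoters are shown for Ccnb1, Ccnb2 and Ccnf, which fell in TKO at 0 h and act late in the cycle, beside that of Ccne1, an earlier cyclin with a larger difference. Many genes of G2 phase and mitosis are known for repeated CCAAT boxes, bound by the factor NF-Y, and for a CHR element, and the table of RefSeq promoters used here (build GRCm38.p6, other coordinates than above) held 5 of the 9 genes in 6 windows. Ccnd1, Ccnd2, Ccne2 and Ccna2 were without an entry. The 250 bases before the start site are printed 5′ to 3′ on the gene's strand, with CCAAT or its reverse complement ATTGG in capitals.
Ccnb1, chr13:100786487-100786736, minus strand: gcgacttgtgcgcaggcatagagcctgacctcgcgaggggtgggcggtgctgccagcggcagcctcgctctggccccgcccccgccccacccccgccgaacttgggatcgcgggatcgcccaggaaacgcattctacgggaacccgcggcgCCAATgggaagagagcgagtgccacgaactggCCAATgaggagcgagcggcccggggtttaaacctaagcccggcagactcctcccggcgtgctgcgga
Ccnb2, chr9:70421555-70421804, minus strand: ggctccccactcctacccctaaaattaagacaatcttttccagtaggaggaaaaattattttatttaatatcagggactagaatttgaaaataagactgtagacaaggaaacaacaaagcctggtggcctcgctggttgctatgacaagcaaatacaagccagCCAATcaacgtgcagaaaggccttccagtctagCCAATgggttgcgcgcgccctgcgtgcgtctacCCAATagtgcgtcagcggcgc
Ccnf, chr17:24251410-24251659, minus strand: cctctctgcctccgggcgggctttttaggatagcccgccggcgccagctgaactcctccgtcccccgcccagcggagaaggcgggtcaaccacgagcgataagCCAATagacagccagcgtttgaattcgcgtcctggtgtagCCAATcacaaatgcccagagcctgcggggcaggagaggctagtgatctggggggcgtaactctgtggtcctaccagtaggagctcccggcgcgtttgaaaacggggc
Ccne1, chr7:38107491-38107740, minus strand: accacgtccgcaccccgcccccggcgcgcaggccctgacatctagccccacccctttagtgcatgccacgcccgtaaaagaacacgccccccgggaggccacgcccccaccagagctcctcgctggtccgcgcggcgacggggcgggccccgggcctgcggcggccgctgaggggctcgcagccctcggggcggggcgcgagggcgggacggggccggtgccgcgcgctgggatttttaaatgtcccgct
CCAAT stood at 99 and 67 bases before the start site of Ccnb1, at 87, 54 and 21 bases before that of Ccnb2, and at 147 and 107 bases before that of Ccnf. Ccne1 held none, and of the 2 Ccnd3 windows, not printed, 1 held it. Of all 32851 promoter windows of this length, 33.85% held CCAAT on either strand and 10.09% held it at least 2 times. The CHR letters TTTGAA, read on both strands, stood 1 time in the Ccnb2 window and 2 times in that of Ccnf. Of all windows, 15.99% held a match and 1.811% held at least 2. The GC box letters GGGCGG, also on both strands, stood 4 times in Ccne1, 3 times in Ccnb1 and 2 times in Ccnf. The 2 Ccnd3 windows held them 2 times and 1 time. The shares of all windows were 32.74% with a match and 16.73% with at least 2. The E2F letters TTTNNCGC were in none of the 6 windows and in 4.28% of all windows. The 4 motifs do not share a site in the printed windows.

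The comparison of genotypes after 4 h of α-amanitin gave 7 of 9 cyclins lower in TKO, where 30.3% of all tested genes were lower. Its group means came from other libraries than those at 0 h. The same fit gave both comparisons, with shared scaling and the same pooled spread for each gene. The result at 4 h is therefore no independent check of that at 0 h. The median of the 9 was -0.45, against -0.01 over all tested genes. Over all tested genes 3625 were higher and 3779 lower, which became 5035 and 2066 with deposited TPM as the median moved to 0.14, and 7 cyclins were lower there as well. Ccnd2 stood at 5.86 and 5.56 scaled TPM in WT 4 h and at 1.83 and 1.90 in TKO 4 h, a mean 3.06-fold lower (log2 difference -1.23, SE 0.082, adjusted p = 6.45e-06). Ccne1 stood at 339 and 352 in WT 4 h and at 187 and 206 in TKO 4 h, a mean 1.76-fold lower (log2 difference -0.81, SE 0.055, adjusted p = 6.86e-06). Neither gene had overlapping libraries. Ccnd3 joined them past 1.5-fold, a limit that 5.82% of tested genes passed in the lower direction, with 193 and 183 scaled TPM in WT 4 h and 113 and 129.9 in TKO 4 h (log2 difference -0.63, SE 0.066, adjusted p = 6.95e-05). Ccnd1 fell by 0.51, Ccna2 by 0.45, Ccnb2 by 0.42 and Ccnb1 by 0.40 on the log2 scale, with adjusted p from 2.31e-05 (Ccnd1) to 0.000239 (Ccnb1). Ccnb1 did not pass with quantile normalisation (adjusted p = 0.0502). The 2 cyclins that did not pass were Ccnf, at 147 and 149.9 scaled TPM in WT 4 h and 139.9 and 137 in TKO 4 h (adjusted p = 0.0709), and Ccne2, at 21.4 and 21.2 in WT 4 h and 24.7 and 18.8 in TKO 4 h (adjusted p = 0.898). TKO 4 h replicate 1 gave the higher of the Ccne2 values, and the difference was -0.16 without it and 0.21 (adjusted p = 0.0486) without TKO 4 h replicate 2. Under the alternative scalings the Ccnf difference turned to 0.06 with deposited TPM, which is -0.08 relative to the median of all tested genes, and to 0.07 with quantile normalisation. With replicate 1 left out, the 7 cyclins still passed in the lower direction.

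**Figure D2:**
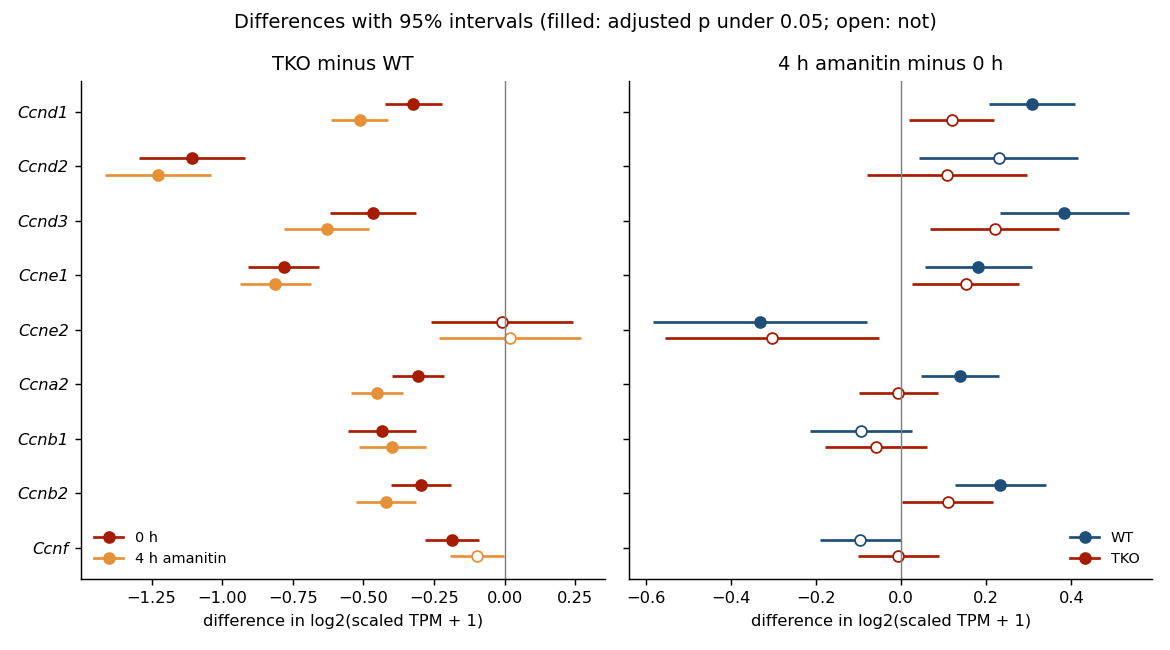
Difference in log2(scaled TPM + 1) on the x axis with its 95% interval for each cyclin, TKO minus WT on the left without and with α-amanitin, and 4 h minus 0 h on the right in WT and TKO. Filled points had an adjusted p under 0.05: 8 and 7 on the left, all below 0, and on the right 6 in WT and 0 in TKO.

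The second comparison asked how the cyclin mRNAs persist after 4 h of α-amanitin. TPM is relative within a library, so a loss shared by all transcripts does not show in it, and a rise is relative to the other transcripts. After 4 h in WT, 5 of the 9 cyclins rose, where 21.9% of all tested genes rose, and 1 fell, where 15.8% fell. The median change of the 9 was 0.18, against 0.03 over all tested genes. None passed 1.5-fold. The split of the cyclins depended on the scaling, with 2 higher and 3 lower with deposited TPM and 3 higher and 2 lower with quantile normalisation. The list of 10 short-lived transcripts was meant as a check of the block, but it was chosen with earlier results of these data known. It is therefore no independent check. All 10 fell in WT, with a median change of -0.49, from -0.33 for Mycn to -0.77 for Egr1. These falls were partial. Mean scaled TPM in WT 0 h and WT 4 h was 188 and 150 for Mycn, and 4.25 and 2.06 for Egr1. The completeness of the block was not tested. With deposited TPM the split over all tested genes moved from 2730 higher and 1965 lower to 397 higher and 3145 lower, and the median change from 0.03 to -0.11, so small changes depend on the scaling.

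Among the cyclins that rose in WT, the D-type cyclins Ccnd3 and Ccnd1 had the largest changes. Ccnd3 went from 142 and 146 scaled TPM at 0 h to 193 and 183 at 4 h, a rise of 0.38 (SE 0.066, adjusted p = 0.00671). Ccnd1 went from 121 and 120.2 to 150.0 and 149.7, a rise of 0.31 (SE 0.044, adjusted p = 0.00533). Libraries did not overlap between the times for either gene, and the rise of Ccnd1 passed with each of the 8 ribodepleted libraries left out in turn. Ccnd3 missed the limit without WT 4 h replicate 1 (adjusted p = 0.0515). Relative to the median of all genes, the 2 changes were 0.28 and 0.35 in the order Ccnd1 and Ccnd3, and 0.26 and 0.34 with deposited TPM. With quantile normalisation they were smaller, at 0.13 and 0.18, and both genes still passed (adjusted p = 0.0222 and 0.0286). Ccnd2 went from 4.83 and 4.62 scaled TPM to 5.86 and 5.56 (log2 change 0.23, adjusted p = 0.0556), short of the limit, which it passed with a pseudocount of 5 TPM, with quantile normalisation and with limma voom on recovered reads. The summed D-type level was 349 and 338 scaled TPM in WT 4 h.

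The E-type cyclins went opposite ways in WT. Ccne1 went from 299.7 and 309 scaled TPM to 339 and 352 (log2 change 0.18, SE 0.055, adjusted p = 0.032). Ccne2 went from 28.8 and 25.4 scaled TPM to 21.4 and 21.2 (log2 change -0.33, SE 0.11, adjusted p = 0.0438). The libraries of the 2 times did not overlap for either gene, yet each call was lost in 6 of 8 fits that left out a library. With deposited TPM and quantile normalisation the Ccne1 change was 0.02 and 0.01. The Ccne2 fall passed with deposited TPM (-0.48, adjusted p = 0.0267) and not with quantile normalisation (-0.30, adjusted p = 0.0772) or with no filter (-0.32, adjusted p = 0.115). Ccne2 supplied 5.95% and 5.69% of the summed E-type level in WT 4 h.

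Of the cyclins of S phase, G2 phase and mitosis, Ccnb2 and Ccna2 rose in WT. Ccnb2 went from 162 and 169 scaled TPM to 196 and 193 in WT (log2 change 0.23, SE 0.047, adjusted p = 0.0088), and it missed the limit with deposited TPM (0.07, adjusted p = 0.168), with quantile normalisation (0.08, adjusted p = 0.103), without WT 0 h replicate 1 (adjusted p = 0.058) and without WT 4 h replicate 1 (adjusted p = 0.059). Ccna2 went from 278 and 283 scaled TPM to 309.7 and 308 (log2 change 0.14, SE 0.040, adjusted p = 0.0285), a direction that turned with deposited TPM and with quantile normalisation, both at -0.02, or 0.09 and -0.06 relative to the median of all tested genes. Neither Ccnb1 nor Ccnf passed. Ccnb1 stood at 395 and 399 scaled TPM at 0 h and at 369 and 375 at 4 h (log2 change -0.09, adjusted p = 0.183). Ccnf stood at 161 and 156 scaled TPM at 0 h and at 147 and 149.9 at 4 h (log2 change -0.10, adjusted p = 0.102). Under both alternative scalings these 2 passed in the lower direction, Ccnb1 with -0.25 and -0.28 and Ccnf with -0.25 and -0.20. Among the 8 ribodepleted libraries, the order of the levels brought neighbours into overlap only in WT 4 h, where Ccnb2 overlapped Ccnd3 and Ccnd1 overlapped Ccnf. The number of cyclins passing in WT was 6 in the main fit, 5 higher and 1 lower, and 1 (Ccnd1) without WT 4 h replicate 1, where 3.02% of tested genes passed in either direction. Fewer than 6 also passed without either WT 0 h library, WT 4 h replicate 2 or either TKO 0 h library. Fewer of all tested genes passed in those fits as well.

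In TKO, α-amanitin moved none of the 9 past the limit, where 0.265% of all tested genes (33, all lower) passed. At an unadjusted p under 0.05 stood 5 of the cyclins and 3110 of all tested genes, and limma voom on recovered reads passed 2 cyclins (Ccnd3 and Ccne2) and 5.92% of genes. Of the short-lived transcripts 1 of 10 fell, with a median change of -0.37. Ccnd3 stood at 103 and 105 scaled TPM in TKO 0 h and at 113 and 129.9 in TKO 4 h (log2 change 0.22, adjusted p = 0.13), and Ccne2 at 27.2 and 26.6 and at 24.7 and 18.8 (log2 change -0.30, adjusted p = 0.154). In both genes TKO 4 h replicate 1 was the library nearer to 0 h. Without it 5 cyclins passed, Ccnd1 (0.17), Ccnd3 (0.32), Ccne1 (0.22) and Ccnb2 (0.16) higher and Ccne2 (-0.49) lower, where 22.5% of all tested genes passed in either direction. The lone TKO 4 h library is then assumed to vary like the other groups. Ccna2 stood at 227 and 226 scaled TPM in TKO 0 h and 227 and 223 in TKO 4 h, and Ccnf at 138 and 139.8 and at 139.9 and 137, with both log2 changes at -0.01. Ccnb1 stood at 302 and 286 scaled TPM and at 293 and 271, overlapping between the times.

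Whether the response to α-amanitin differed between the genotypes was tested by the interaction term, TKO change minus WT change. In the main fit, no cyclin and no other tested gene passed (0% of tested genes by limma, smallest adjusted p = 0.532). The unadjusted p was under 0.05 for 2 cyclins, Ccnd1 (interaction -0.19, adjusted p = 0.662) and Ccna2 (-0.14, adjusted p = 0.662), and for 938 of all tested genes, while voom passed none. The Ccnd1 change was 0.31 in WT and 0.12 in TKO, and the 95% interval of their difference ran from -0.33 to -0.05 before adjustment. For Ccne1 the changes were 0.18 and 0.15 and the interval ran from -0.21 to 0.15. For Ccne2, at -0.33 and -0.30, it ran from -0.33 to 0.38. Without TKO 4 h replicate 1 the interaction turned sign for 3 cyclins, Ccne1, Ccne2 and Ccnb1. With no filter on low values, 2 of 19470 genes passed higher and 2 lower, none of them a cyclin. The WT and TKO changes and the genotype differences are drawn from the same 8 libraries and are not independent of each other.

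The cyclins were set beside lists of genes from the same machinery. The counts below at 0 h stand beside 27.8% of all tested genes higher and 28.2% lower in TKO, and several are near these shares. Of 5 CDKs, 4 fell in TKO at 0 h and none rose (median -0.20), and Cdk4, the partner of the D-type cyclins, fell furthest, from 652 and 681 scaled TPM to 560.4 and 574 (log2 difference -0.23, SE 0.071, adjusted p = 0.0214). CDK inhibitors went the other way, with 4 of 6 tested higher, 1 lower and a median of 0.84. Cdkn2b, an inhibitor of Cdk4 and Cdk6, stood at 3.88 and 3.81 scaled TPM in WT 0 h and at 10.3 and 9.45 in TKO 0 h (log2 difference 1.16, SE 0.17, adjusted p = 0.000475). Cdkn1a, Cdkn1c and Cdkn2a also rose. Cdkn1b, an inhibitor of Cdk2 complexes and the one with the highest level in WT 0 h, fell from 34.0 and 32.1 to 20.2 and 20.4 scaled TPM (log2 difference -0.68, SE 0.055, adjusted p = 1.79e-05). Cdkn2c was also below 0 but did not pass (log2 difference -0.37, adjusted p = 0.0509). Of 13 Rb and E2F genes, which govern transcription at S phase entry, 1 rose and 6 fell (median -0.13). E2f8, a repressor, fell from 26.0 and 24.8 to 14.3 and 14.6 scaled TPM (log2 difference -0.77), and E2f6, also a repressor, rose from 13.2 and 13.3 to 17.2 and 17.5 (0.36).

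Among 11 genes of cyclin turnover, 2 rose and 6 fell in TKO at 0 h (median -0.20). Skp1a, a core subunit of SCF ligases, rose by 0.22, and Cks2, a small CDK-binding protein, fell by 0.50. Of 13 mitotic regulators, 5 fell and none rose (median -0.07), with Mki67, the proliferation marker Ki-67, falling from 107 and 94.8 to 69.4 and 70.5 scaled TPM (log2 difference -0.52, SE 0.065, adjusted p = 0.00021). The other 8 mitotic regulators did not pass. Of 13 tested other cyclins, 3 rose and 2 fell (median -0.05). Ccno, which is needed for multiciliated cells, rose from 1.63 and 1.30 to 5.35 and 4.79 scaled TPM (log2 difference 1.30), and Ccnl1, a cyclin of RNA processing, fell from 62.5 and 61.3 to 53.8 and 51.9 (-0.22). Of the 10 short-lived transcripts, 2 rose, led by Jun (1.52), and 2 fell, led by Mycn (-0.57). The medians of the lists stand beside -0.02 over all tested genes. At 4 h of α-amanitin, where 29.1% of all tested genes were higher and 30.3% lower, the genotype comparison gave 3 CDKs lower and none higher, 4 inhibitors higher and 1 lower, 1 Rb or E2F gene higher and 6 lower, 6 turnover genes and 5 mitotic regulators lower with none higher, 3 other cyclins higher and 2 lower, and 3 short-lived transcripts higher and 1 lower.

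Under α-amanitin in WT the list counts stand beside 21.9% of all tested genes higher and 15.8% lower. The 13 other cyclins included 4 that fell and 1 that rose (median -0.13), Ccnl1 falling from 62.5 and 61.3 to 39.2 and 39.0 scaled TPM (log2 change -0.65, adjusted p = 0.00324) and Ccny rising by 0.21. Of the CDKs, Cdk4 rose, from 652 and 681 to 838 and 799.5 scaled TPM (0.30, adjusted p = 0.0148), and the other 4 did not pass. Among inhibitors Cdkn1c rose by 0.31, while Cdkn1a fell by 0.42 and Cdkn1b by 0.25. The Rb and E2F genes split into 4 that rose, led by Tfdp1 (0.27), and 4 that fell, led by E2f3 (-0.39). Of the turnover genes 4 rose, Skp1a most (0.31), and 2 fell, with Fbxo5, an inhibitor of the ligase that destroys mitotic cyclins, falling from 128 and 124 to 88.3 and 86.6 scaled TPM (-0.52, adjusted p = 0.0055). Mitotic regulators gave 1 rise, Mybl2 (0.19), and 2 falls, the larger for Wee1 (-0.38), the kinase that restrains Cdk1. In TKO no gene of these 6 lists passed under α-amanitin.

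**Figure D3:**
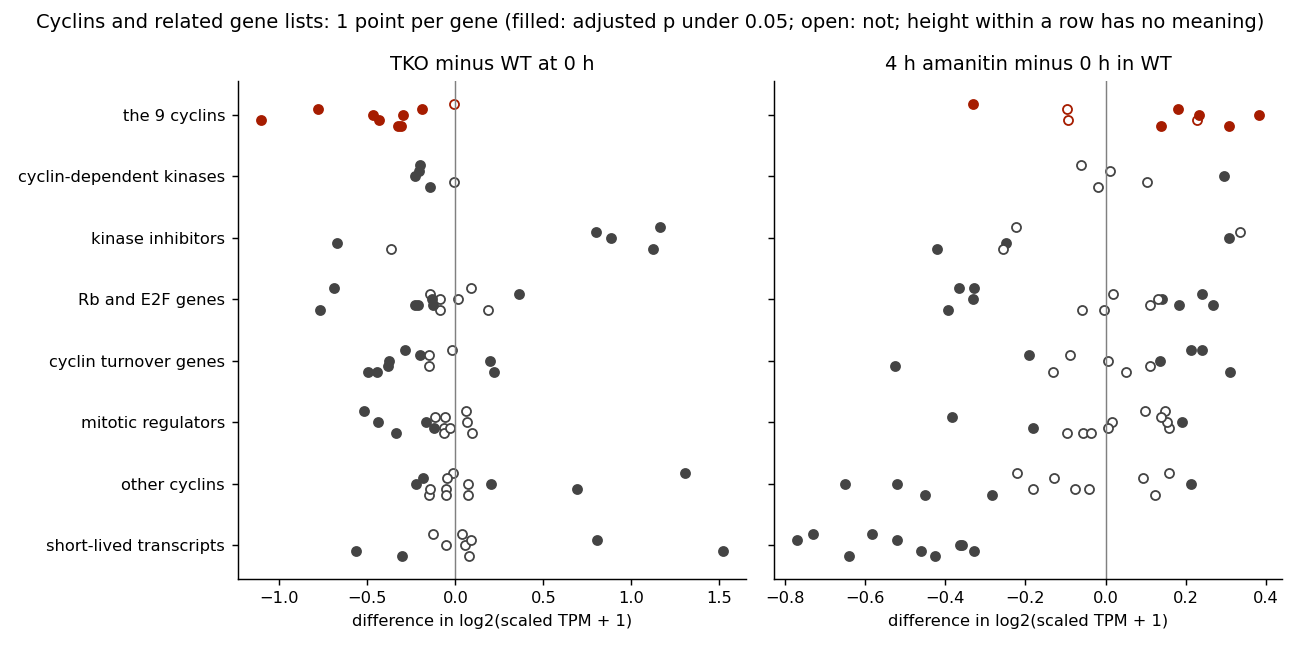
Difference in log2(scaled TPM + 1) on the x axis for the 9 cyclins (red) and 7 gene lists (grey), a point per tested gene, filled where the adjusted p was under 0.05. On the left, TKO minus WT at 0 h, 8 cyclins lie filled below 0 while 4 kinase inhibitors lie filled above it; on the right, 4 h of α-amanitin minus 0 h in WT, the 10 short-lived transcripts lie between -0.77 and -0.33.

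The genes whose levels followed the 3 most variable cyclins were sought by Pearson correlation of log2(scaled TPM + 1) over the 8 ribodepleted libraries, among 9672 genes with a mean scaled TPM above 5. Closest to Ccnd2 were Pdk1 (r = 0.9995), Srp9 (r = 0.999) and Dock1 (r = 0.9989). Closest to Ccne1 were Hibadh (r = 0.9991), Dpysl2 (r = 0.9981) and Ddx58 (r = 0.998), and closest to Ccnd3 were Exosc5 (r = 0.9991), Isyna1 (r = 0.9988) and Ddx39 (r = 0.9988). These libraries fall into 4 groups and share their size factors, so the values describe likeness over those groups. Mean scaled TPM in the order WT 0 h, WT 4 h, TKO 0 h and TKO 4 h was 107, 126, 47.4 and 51.0 for Pdk1 and 91.1, 109, 41.7 and 47.3 for Hibadh, so both were lower in TKO at each time.

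The third comparison set WT polyA against WT 0 h ribodepleted libraries, in a separate fit with its own size factors. RNA selection and sequencing experiment differ together between these libraries and cannot be told apart. Of the 9 cyclins 2 were higher in polyA RNA, where 40.1% of 12481 tested genes were higher, and 5 were lower, where 40.8% were lower. Ccnd3 was at 302, 297 and 303 scaled TPM in polyA libraries and at 149.6 and 154 in ribodepleted ones, a mean 1.98-fold higher (log2 difference 0.98, SE 0.035, adjusted p = 4.33e-08). Ccnd1 went the other way, at 68.2, 65.6 and 67.0 against 128 and 127, a mean 1.91-fold lower (log2 difference -0.92, SE 0.036, adjusted p = 6.54e-08). Accordingly Ccnd3 made up 81.0% to 81.3% of the summed D-type level in polyA libraries, and it ranked above Ccna2 in those libraries.

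Ccnd2, at 2.72, 2.77 and 2.59 scaled TPM in polyA libraries and 5.10 and 4.88 in ribodepleted ones, was lower by a log2 difference of -0.70 (adjusted p = 1.57e-05). Ccne2 (-0.50), Ccna2 (-0.43) and Ccnf (-0.14) were also lower, and Ccnb2 was higher by 0.15 (adjusted p = 0.00429). Ccnf missed the limit with deposited TPM (adjusted p = 0.465). Ccne1, at 321, 316 and 329 scaled TPM against 316 and 326, had a difference of 0.00 with a 95% interval from -0.08 to 0.09 (adjusted p = 0.945). Ccnb1, at 440.0, 424 and 440.2 against 417 and 422, had a difference of 0.05 with an interval from -0.03 to 0.14 (adjusted p = 0.233). With deposited TPM and with quantile normalisation these 2 passed in the higher direction, Ccne1 at 0.11 and 0.06 and Ccnb1 at 0.15 and 0.09.

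**Figure D4:**
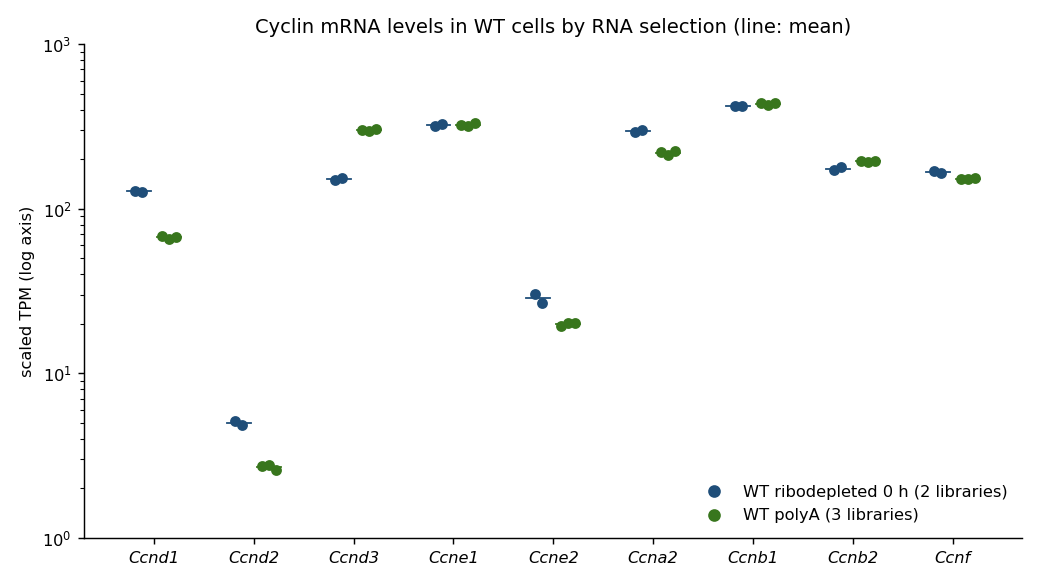
Scaled TPM on a log axis of the 9 cyclins in WT ribodepleted libraries at 0 h (blue, 2 libraries) and WT polyA libraries (green, 3 libraries), with lines at the means. Ccnd3 lies higher and Ccnd1 lower in polyA RNA, while the Ccne1 points of the 2 kinds of library overlap.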

How the data were processed

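RNA sequencing libraries of mouse ESCs were analysed from the deposited gene tables, 1 per library, in TPM. According to the study's methods, the authors removed low-complexity reads (AfterQC) and reads matching ribosomal or transfer RNA (Bowtie2), trimmed adapters (Trimmomatic), aligned to mm9 with STAR and RefSeq genes, counted with HTSeq, and deposited TPM. Versions and strand setting are not given in the sources used here, and no raw counts were used.

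Each of the 8 ribodepleted libraries was scaled by a size factor (median of ratios), and limma 3.58.1 (R 4.3.3) was run on log2(scaled TPM + 1) of 12467 genes whose mean scaled TPM exceeded 1, with group coefficients, a trended eBayes, no block and two-sided tests. WT polyA and WT 0 h libraries were fitted separately (12481 genes). The study tested raw counts with DESeq2, which was not used here. Whole reads were recovered from the TPM steps for 99.99% of genes within 0.001 reads and used for depth and for limma voom. Groups and replicate numbers came from the sample titles. The script was tested on simulated data. The cyclins and the gene lists were chosen with earlier results of these data known. From each list, the passing genes with the largest rise and fall were named, and Cdkn1a, Cdkn1b, Cdkn1c, Cdkn2a and Cdkn2c were also named after their values were seen. Figures were drawn with matplotlib 3.10.9. Alternatives were 2 pseudocounts, 2 scalings, no filter, a 1.5-fold limit, a replicate block, voom, and leaving out each library.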

Additional observations from a re-analysis of the deposited data

How the results depend on the processing

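With a 1.5-fold limit added, 2 cyclins passed for TKO against WT at 0 h and 3 at 4 h, all lower. The shares of all tested genes lower by that limit were 5.43% and 5.82%. It was passed by 0 cyclins for α-amanitin in WT and 3 for polyA against ribodepleted RNA, with that share not computed. With limma voom 2 passed for α-amanitin in TKO. Leaving out 1 library gave 1 to 6 passing for α-amanitin in WT and 0 to 5 in TKO, the 5 without TKO 4 h replicate 1. The other alternatives kept each total of passing cyclins within 1.5 times, but for α-amanitin in WT the 5 higher and 1 lower became 2 and 3 with deposited TPM, 3 and 2 with quantile normalisation, and 4 and 0 with no filter. Single values turned sign as follows. With deposited TPM, Ccne2 at 0 h was 0.083, Ccnf at 4 h 0.059, Ccna2 in WT α-amanitin -0.021 and the Ccne1 interaction 0.032. With quantile normalisation, Ccne2 at 4 h was -0.015, Ccnf at 4 h 0.067, Ccna2 in WT α-amanitin -0.021 and the Ccne1 interaction 0.050. With no filter, Ccne2 at 4 h was -0.020. Over libraries left out, Ccne2 ran from -0.10 to 0.072 at 0 h and from -0.16 to 0.21 at 4 h. In TKO α-amanitin Ccna2 ran from -0.017 to 0.0070 and Ccnf from -0.020 to 0.0095. The interaction ran from -0.096 to 0.043 for Ccne1, from -0.15 to 0.22 for Ccne2 and from -0.014 to 0.092 for Ccnb1. For polyA against ribodepleted RNA, Ccne1 ran from -0.028 to 0.024. The cause was not tested. Of the single values under alternatives other than left-out libraries, 343 kept direction and side of the limit, 11 lost it, 14 gained it and 10 turned sign. With the titles' replicate number as a block, the passing cyclins stayed at 8, 7, 6, 0, 0 and 7 in the 6 comparisons, and Ccne1 in polyA RNA was at -0.013. Deviations of same-numbered libraries correlated between -0.04 and 0.12, so the numbers were not taken to pair the samples. Precision is limited by 2 libraries per group, and for Ccnd2 by as few as 139 reads.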
